A study of Homo sapiens with 2 samples.

Results

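The genes described here are 10 of 15603 listed for A172, an established human glioblastoma line: the NF-kB subunits NFKB1, NFKB2, RELA, RELB and REL, the inhibitors NFKBIA, NFKBIB and TNFAIP3, the kinase MAP3K8 and the chemokine CCL2. Of these, 8 were taken for their place in the pathway, while MAP3K8 and CCL2 were selected on their falls in these same libraries, so the level differences of the set are given as a description and carry no test. RNA was sequenced from parental A172 cells labelled as kept without temozolomide (TMZ), an alkylating drug used against glioblastoma, and from the resistant clone A172-r#6, selected with TMZ and labelled as treated with it. There was 1 library per group, and the resistant group is 1 clone, so clone, selection and drug exposure cannot be told apart and no difference has a replicate check. Levels are FPKM, fragments counted per kilobase of a transcript and per unit of depth, a scale per length that allows levels to be compared between genes. Depth is unknown.

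NF-kB is a family of transcription factors that act as dimers. In the canonical branch, dimers of RELA or REL with p50, the product of NFKB1, are held in the cytoplasm by inhibitors of the IkB kind until the IkB kinases mark those inhibitors for destruction. In the alternative branch, the kinase MAP3K14 drives the processing of the NFKB2 product p100 to p52, which works with RELB. Several of the factors and inhibitors are themselves known targets of NF-kB, and CCL2 is a chemokine under its control that draws in monocytes and macrophages, abundant cells in glioblastoma tissue.

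Matches to the sequence that NF-kB is known to bind are shown first, since several of the members are known targets. Not every member held one. RefSeq promoter windows (GRCh38.p14, 250 bases before to 50 after a transcript start) were matched by symbol for 8 of the 10 members, RELB and CCL2 being the others, and gave 15 windows because some genes have several starts. The 10-base NF-kB consensus, known as the kB site, was searched on both strands, and overlapping matches were counted as 1. At least 1 window held it in 7 of the 8 members, RELA being the exception, or 87.5%. Across all genes with a window the share was 13.3% (3619 of 27305), and among tested genes with a window 17.4%. A gene with more windows has more places for a match. Counted by window, the match was in 10 of the 15 windows of members and in 11.3% of all windows. A looser pattern, GGGNNNNNCC on either strand, was present in 58.7% of all windows and in all 15 windows of the members, so it separates little. The stretches that follow run 5′ to 3′ along the gene's strand, with the consensus match in capitals.

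NFKB1, chr4:102501300-102501329, plus strand: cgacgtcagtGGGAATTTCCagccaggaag
NFKB2, start 2, chr10:102394462-102394491, plus strand: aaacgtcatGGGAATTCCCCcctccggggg
NFKB2, start 3, chr10:102395674-102395703, plus strand: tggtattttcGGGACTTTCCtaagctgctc
REL, chr2:60881518-60881547, plus strand: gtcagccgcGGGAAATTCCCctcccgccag
NFKBIA, chr14:35404781-35404870, minus strand: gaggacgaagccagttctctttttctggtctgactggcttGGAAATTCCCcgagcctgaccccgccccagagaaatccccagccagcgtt
NFKBIB, start 2, chr19:38899901-38899951, plus strand: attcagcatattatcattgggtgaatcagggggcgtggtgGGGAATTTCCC
TNFAIP3, chr6:137867188-137867217, plus strand: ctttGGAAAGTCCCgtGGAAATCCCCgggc
MAP3K8, start 1, chr10:30433982-30434011, plus strand: ggggagacgcGGAATTTCCCagcgcggggg
MAP3K8, start 3, chr10:30434399-30434488, plus strand: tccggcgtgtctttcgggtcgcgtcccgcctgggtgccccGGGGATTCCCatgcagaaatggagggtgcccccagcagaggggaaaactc

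The match of NFKBIA began 81 bases before its start, that of NFKB1 49 bases before and that of REL 47 bases before. TNFAIP3 held a pair of matches, beginning 67 and 55 bases upstream and separated by 2 bases. NFKB2 held 2 in the window of its start 2, at 107 and 78 bases, and 2 in that of its start 3, at 176 and 21 bases, and none at its start 1. Starts are numbered by coordinate. In MAP3K8 the windows of starts 1 and 2 held the same site, 29 bases before start 1, and start 3 had a different one at 207 bases. By GENCODE release 29, the sites of NFKBIA and of MAP3K8 start 3 overlapped no annotated exon. The NFKBIB site 28 bases before its start 2 and the NFKB2 site at 176 bases also overlapped none. Those of REL, TNFAIP3 and MAP3K8 start 1 lay in an exon of a transcript of the same gene with an earlier start. The other NFKB2 sites lay in NFKB2 exons. NFKBIB held a further match, beginning 38 bases after its start 2, in its own exon. The site of NFKB1 lay in an exon of AF213884.3, on the opposite strand. A match is a run of letters and was not tested for binding. The site is present both in NFKB2, which was higher in the resistant clone, and in MAP3K8, which was lower, and in NFKB1 and NFKBIA, which differed little.

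**Figure D1:**
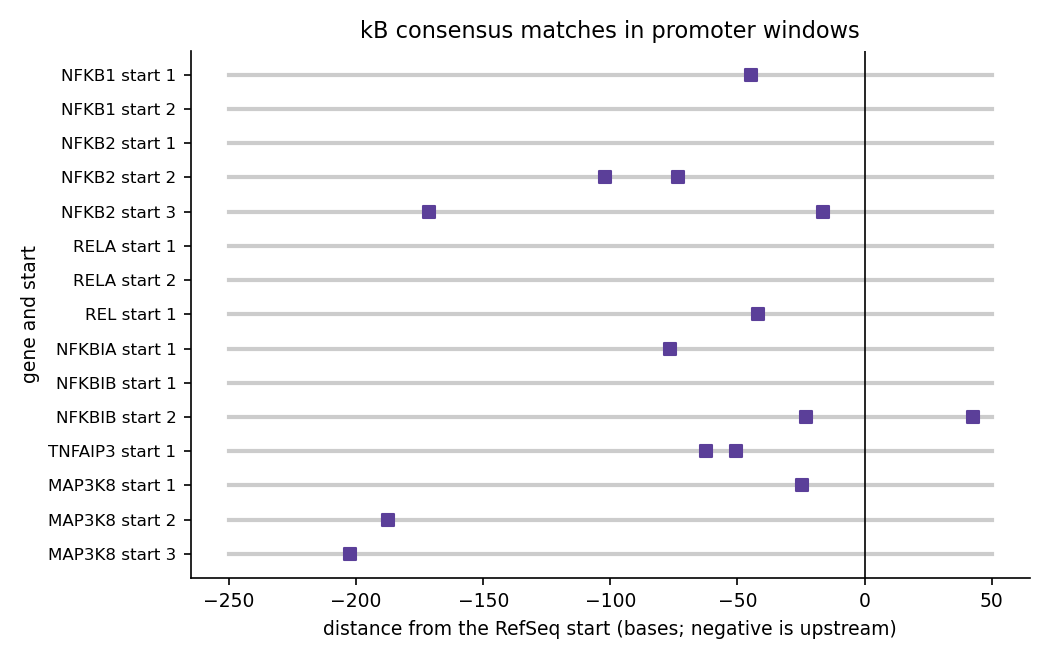
Position of each kB consensus match (squares) in the 15 promoter windows of 8 members, as the distance in bases from the RefSeq start of each window (vertical line, negative is upstream). NFKBIA, NFKB1 and REL have a match within 81 bases upstream of the start, TNFAIP3 has a pair, and both RELA windows are empty.

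Across the set, 4 members differed at least 2-fold between the libraries. NFKB2 and RELB, the partners of the alternative branch, were higher in the resistant clone, and MAP3K8 and CCL2 were lower. The other 6, among them NFKB1, RELA and the 3 inhibitors, stayed under 2-fold. The log2 fold is the difference, resistant minus parental, of log2(FPKM + 1). A gene was called when it was at least 1 in size, provided that 1 of the libraries reached 1 FPKM, a filter all 10 members passed. Of 13937 tested genes, 4.59% were called higher and 3.82% lower. With 10 members, 2 calls in each direction stand beside those shares, but the pair of lower calls was fixed by the choice of MAP3K8 and CCL2. The median log2 fold was 0.29 over the members and 0.04 over all tested genes. The choice of MAP3K8 and CCL2 for their falls pulls the first of these medians down, so it is a description only.

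**Figure D2:**
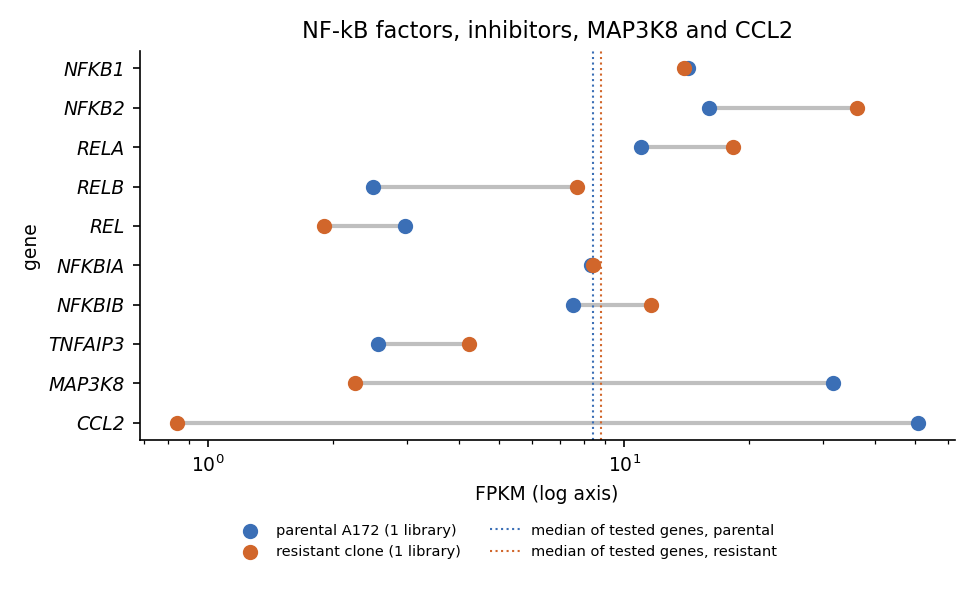
FPKM of each member in the parental (blue) and resistant (orange) library, on a log axis, 1 library each, with the medians of all tested genes as dotted lines. NFKB2 and RELB sit to the right in the resistant library, while MAP3K8 is at 31.7 and 2.25 and CCL2 at 50.8 and 0.840 FPKM.

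Among the subunits, NFKB2 (ENSG00000077150, chromosome 10, 102394110 to 102402529, GRCh38, plus strand) was the most abundant in both libraries. It encodes p100, which both inhibits RELB and gives rise to p52. Its level was 16.0 FPKM in parental cells and 36.3 in the clone, a plain ratio of 2.27 and a log2 fold of 1.13. In the parental library 69.5% of tested genes had a lower level than NFKB2, and in the resistant library 87.3% did. The resistant value thus lay well above the parental one, and NFKB2 had rank 442 from the highest log2 fold.

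RELB (ENSG00000104856, chromosome 19, 45001430 to 45038198, GRCh38, plus strand) encodes the partner of p52 and lacks some of the interactions of the other subunits with IkB proteins. It was the least abundant subunit of the parental library, at 2.49 FPKM, and stood at 7.71 in the resistant one. The plain ratio was 3.10 and the log2 fold 1.32, the highest of the 10 members. It passed REL in the order of levels but remained below the median of tested genes, 8.79 FPKM in the resistant library.

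RELA, the main activating subunit of the canonical branch, had 11.0 FPKM in parental cells and 18.2 in the clone (ratio 1.66, log2 fold 0.68), which is under the threshold. NFKB1, the source of p50, had 14.2 and 13.9 FPKM, nearly the same level. REL, a subunit best known from lymphocytes, was lower without being called, at 2.97 and 1.90 FPKM (log2 fold -0.45). In order of level the parental library ran NFKB2, NFKB1, RELA, REL, RELB, and the resistant library NFKB2, RELA, NFKB1, RELB, REL. Without replicates it cannot be said which neighbours in these orders differ beyond their spread.

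The make-up of the subunit transcripts can be read from these values. The 5 subunits summed to 46.7 FPKM in parental cells and 78.1 in the clone. NFKB2 and RELB together made up 39.7% of the parental sum and 56.4% of the resistant one. Their joint level went from 18.5 to 44.1 FPKM, while that of NFKB1, RELA and REL went from 28.2 to 34.1. The share of NFKB1 was 30.4% and 17.8%, and that of RELA stayed near 23.5% and 23.4%. There were 1.13 NFKB2 transcripts per NFKB1 transcript on the FPKM scale in the parental library and 2.61 in the resistant one. These are transcript levels, and neither processing of p100 nor nuclear protein was measured.

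The inhibitors differed less. NFKBIA encodes IkB-alpha, the fast feedback inhibitor whose transcript is widely read as a sign of canonical activity. It had 8.31 FPKM in parental cells and 8.41 in the clone (log2 fold 0.02). NFKBIB, which encodes IkB-beta, had 7.55 and 11.6 FPKM (0.56). TNFAIP3, the ubiquitin-editing enzyme A20 that shuts off signalling upstream of the IkB kinases, had 2.57 and 4.24 FPKM (0.55). None of the 3 was called, and NFKBIA was level between the libraries. NFKBIB shares exons with SIRT2 on the opposite strand and TNFAIP3 with RP11-356I2.4, and whether strand was used in counting is not given in the sources used here, so both values are uncertain. Per FPKM of NFKBIA and NFKBIB together there were 2.94 FPKM of subunits in parental cells and 3.91 in the clone. With the further inhibitor gene NFKBIE included, the values were 2.02 and 2.54. Both ratios share the uncertainty of NFKBIB.

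MAP3K8 (ENSG00000107968, chromosome 10, 30433937 to 30461833, GRCh38, plus strand) encodes the kinase also called TPL2 or COT. It is held inactive by the NFKB1 product p105 and, once the IkB kinases act on p105, passes the signal to MEK and ERK. Its level was 31.7 FPKM in parental cells and 2.25 in the clone, 14.1-fold lower by the plain ratio (log2 fold -3.33). Among 13937 tested genes it had rank 8 from the lowest log2 fold. It was above 86.0% of tested genes in the parental library and above 19.6% in the resistant one. Since its binding partner NFKB1 differed little, there were 0.448 FPKM of NFKB1 per FPKM of MAP3K8 in the parental library and 6.19 in the resistant one.

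CCL2 (ENSG00000108691, chromosome 17, 34255218 to 34257203, GRCh38, plus strand) had 50.8 FPKM in parental cells and 0.840 in the clone. It was 60.5-fold lower by the plain ratio, with a log2 fold of -4.81 that the pseudocount of 1 shrinks. It had rank 2 from the lowest log2 fold of all tested genes. It went from above 92.4% of tested genes to above 4.78%. It was the most abundant of the 10 members in the parental library and the least abundant in the resistant one. In bulk RNA, fewer expressing cells and less RNA per cell cannot be told apart.

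In the authors' deposited table, 9.11% of the 15603 genes had a q-value under 0.05, a threshold chosen here. The authors' deposited table put 5 of the 10 members under it. The q-value in the authors' deposited table was listed as 0 for CCL2 and MAP3K8, 0.000315 for RELB, 0.00244 for NFKB2 and 0.00284 for RELA, the last a gene under the 2-fold threshold. In the same authors' deposited table it was 0.181 for NFKBIB, 0.396 for TNFAIP3, 0.470 for REL, 0.962 for NFKB1 and 0.988 for NFKBIA. These values compare the libraries, not the conditions, and their test is not stated.

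**Figure D3:**
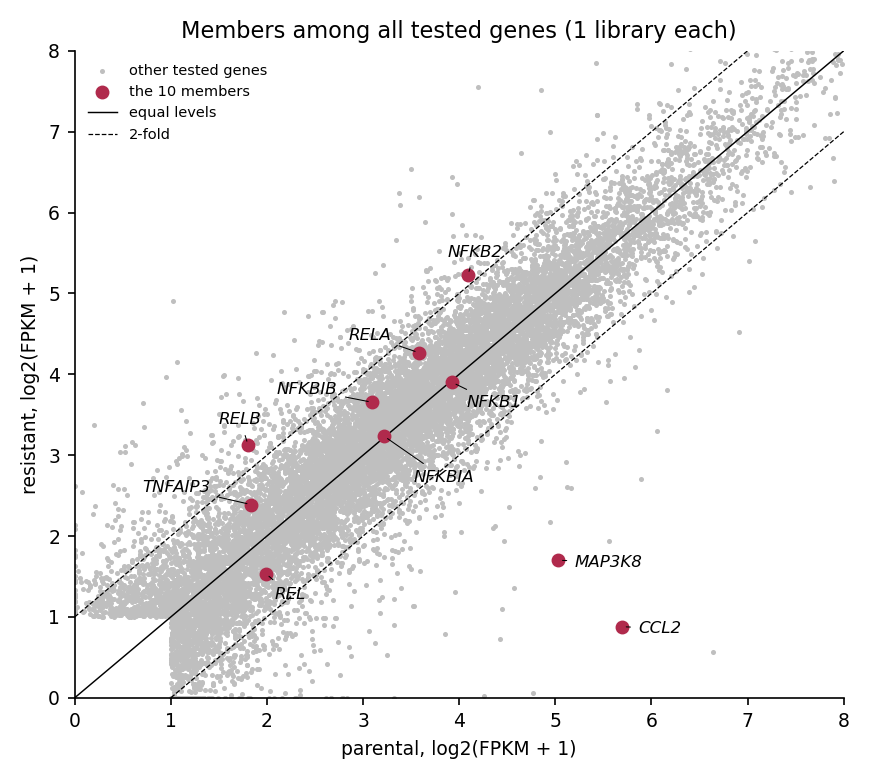
Level of each tested gene in the parental (x) and resistant (y) library as log2(FPKM + 1), with the 10 members in red, the line of equal levels and dashed 2-fold lines. Genes beyond 8 on either axis are not drawn. CCL2 and MAP3K8 lie far below the lower 2-fold line, NFKB2 and RELB just above the upper one, and NFKBIA and NFKB1 on the line of equal levels.

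The 4 called members are on chromosomes 10, 17 and 19, with MAP3K8 and NFKB2 on opposite arms of chromosome 10. For each, the 3 listed genes before and the 3 after were read in order of GENCODE start. Around CCL2, PSMD11 had 83.5 and 77.6 FPKM, CDK5R1 2.29 and 2.50, CCT6B 2.58 and 2.25, ZNF830 4.74 and 4.62, and LIG3 10.5 and 14.9. RP11-227G15.11, the remaining neighbour, was listed at 0 in the parental and at 0.565 FPKM in the resistant library. None was called, and the nearest, CCT6B, starts 673 kb away, so the difference at CCL2 was not seen in the flanking listed genes. The neighbouring chemokine genes of the same cluster were not analysed here.

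Around MAP3K8, 1 neighbour was called lower, ZEB1, a repressor known from epithelial-mesenchymal transition, at 17.0 and 7.34 FPKM. It starts 885 kb away. The others stayed under 2-fold: SVIL had 15.9 and 9.86 FPKM, KIAA1462 3.84 and 4.80, MTPAP 7.57 and 9.10, ZNF438 1.61 and 1.39, and ZEB1-AS1 1.99 and 1.84. Both of the genes closest to MAP3K8, MTPAP and ZNF438, were thus near level. Around NFKB2, the nucleolar gene NOLC1 came nearest to the threshold, at 13.0 and 26.3 FPKM (log2 fold 0.97), and PPRC1 had 13.9 and 20.2. GBF1, FBXL15, CUEDC2 and RPARP-AS1 had log2 folds of -0.38, 0.15, -0.12 and -0.15. Around RELB the folds ran from -0.31 for MARK4 to 0.74 for TOMM40, with NECTIN2 at 0.01, CLPTM1 at -0.14, CLASRP at 0.49 and GEMIN7 at 0.23.

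**Figure D4:**
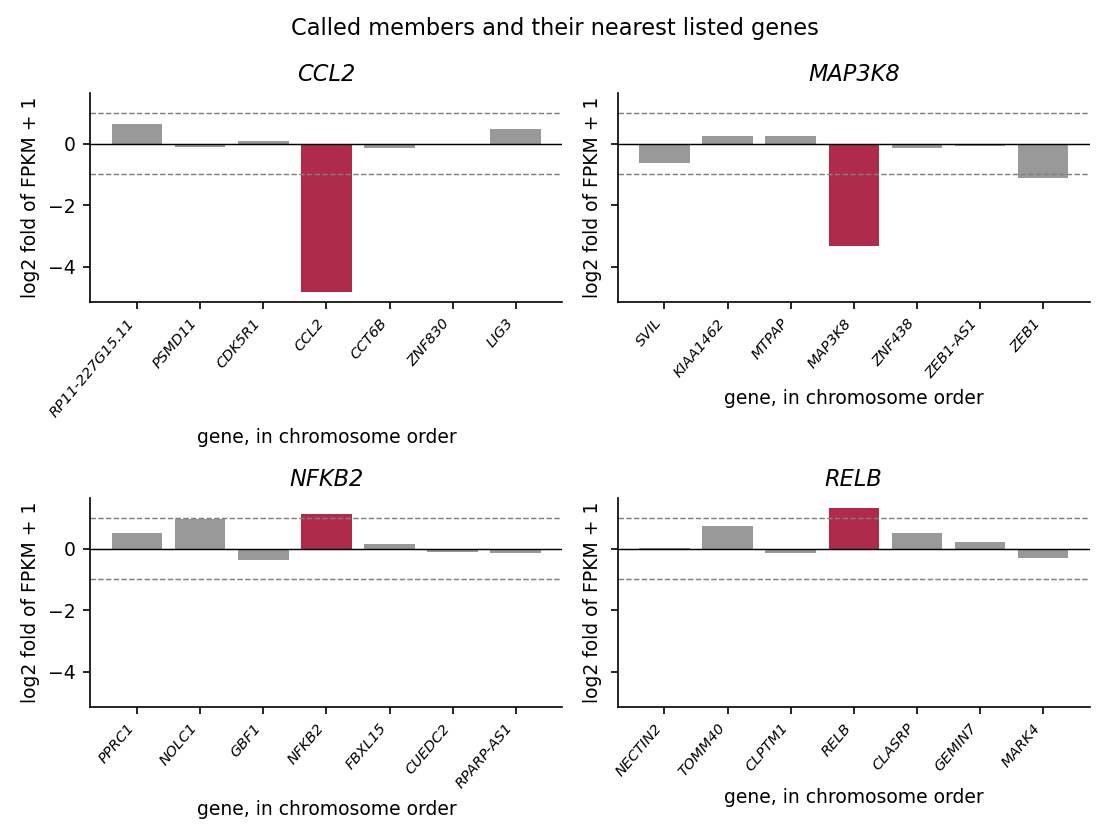
Log2 fold (resistant over parental, of FPKM + 1) of CCL2, MAP3K8, NFKB2 and RELB (red) and of the 3 listed genes on each side in chromosome order (grey), with dashed lines at 2-fold. Of the 24 neighbours shown, ZEB1 beyond MAP3K8 is past a 2-fold line, and RP11-227G15.11 was under the filter on low values.

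The genes most like each called member were found by distance over the 2 libraries on log2(FPKM + 1), where a distance of 1 is one doubling. Nearest to CCL2 were GPM6A, a neuronal membrane glycoprotein, at a distance of 0.999, MAP3K8 at 1.06 and POSTN, the matrix protein periostin, at 1.07. No listed gene lay within 0.5 of CCL2, and 1 lay within 0.5 of MAP3K8, OLFML3 (29.8 and 3.52 FPKM, distance 0.48), ahead of RGS5 (0.58) and POSTN (0.58). By contrast 233 genes lay within 0.5 of NFKB2, with KCTD5, ASB1 and GPRC5B nearest, and 171 within 0.5 of RELB, with the cytokine IL11 (2.42 and 8.14 FPKM), ZPR1 and THSD4 nearest. With 2 libraries this says that the levels were alike and nothing more.

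Other genes of the pathway were read from lists, and none of the lists carries a test. The shares to set beside each count are those of all tested genes, 4.59% higher and 3.82% lower. Some genes are on several lists. Of 6 further IkB-type and nuclear inhibitor genes none was called (median log2 fold -0.01). NFKBIE, encoding IkB-epsilon, had 7.21 and 10.8 FPKM in the parental and resistant libraries. The atypical IkB proteins that act in the nucleus were lower without being called: NFKBID had 2.10 and 0.876 FPKM, NFKBIZ 6.47 and 3.68, and BCL3 7.84 and 6.14. NFKBID was called lower with a pseudocount of 0.1 or none. The most abundant of the list was NFKBIL1, at 11.9 and 14.7 FPKM.

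Of 11 tested receptors that signal to NF-kB, 1 was called higher and 1 lower (median 0.04). TNFRSF12A, the receptor for TWEAK and a known input to the alternative branch, was the most abundant, at 109 FPKM in parental cells and 285 in the clone. TLR4, the receptor for bacterial lipopolysaccharide, was lower, at 7.66 and 2.54 FPKM. The interleukin 17 receptor chain IL17RC had 20.9 and 10.3 FPKM and TLR1 2.19 and 0.726, both under the threshold with the pseudocount of 1 though past 2-fold by the plain ratio. IL17RC was called lower with either scaling. LTBR and NGFR had values under the filter, and 7 further genes of the list were not analysed here. Of 3 tested ligands none was called: IL18 had 19.4 and 18.2 FPKM, TNFSF12, which encodes TWEAK, 4.21 and 4.23, and IL1A 0.138 and 1.02. IL1A was 7.37-fold higher by the plain ratio and was called with a pseudocount of 0.5, 0.1 or none. The other 8 ligands were not analysed here.

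Between receptor and kinase, 3 of 21 tested adaptors and ubiquitin ligases were called higher and none lower (median 0.22, with a log2 fold above 0 in 16). The shares over all tested genes were 4.59% higher and 3.82% lower. TRAF3IP2, the adaptor of the interleukin 17 receptor, had 2.73 and 7.87 FPKM, RBCK1, a subunit of the linear ubiquitin ligase, 26.4 and 58.0, and BCL10, which joins MALT1 in a signalling scaffold, 4.83 and 10.7. BCL10 lay just past the threshold and was no longer called with either scaling alternative, to the upper quartile or to reference genes. RIPK2 came close, at 5.61 and 12.1 FPKM, and was called higher with a pseudocount of 0.5, 0.1 or none. IRAK1 was the most abundant, at 52.1 and 74.3. No member of the IkB kinase list of 10 was called (median 0.09). IKBKB, the catalytic subunit of the canonical branch and the most abundant of the list by the mean of the libraries, had 41.9 and 21.7 FPKM (log2 fold -0.92), and IKBKE 6.69 and 3.14 (-0.90). IKBKB was called lower with reference gene scaling, and IKBKE with a pseudocount of 0.1 or none. CHUK, the catalytic subunit needed for p100 processing, had 13.2 and 18.3 FPKM (0.44), and TAB2 17.3 and 23.7 (0.44). MAP3K14, named after its values were seen for its role above NFKB2, was near level, at 14.3 and 16.3 FPKM.

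None of 12 tested negative regulators was called (median 0.27). TNIP2, which binds both A20 and the complex of MAP3K8 with p105, had the largest fold, with 11.4 and 19.4 FPKM. OTUD7B had 5.64 and 8.62, TOLLIP 14.7 and 21.5 and TNIP1 28.3 and 39.6, while the most abundant, TAX1BP1, was level at 92.0 and 90.2. These brakes lay between log2 folds of -0.31 and 0.71.

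Of 17 tested NF-kB target genes outside the 10, 4 were called higher and none lower, with a median of 0.50 beside 0.04 over all tested genes. Over all tested genes, 4.59% were called higher and 3.82% lower. The log2 fold was above 0 in 12 targets and below 0 in 5. NFKBIE, NFKBIZ, BCL3, TNIP1 and BIRC3 are counted in other lists as well. SOD2, the mitochondrial superoxide dismutase, had 29.8 FPKM in parental cells and 127 in the clone (log2 fold 2.06). CCND1, cyclin D1, had 61.7 and 146, the urokinase gene PLAU 3.72 and 9.74, and the syndecan SDC4 13.2 and 29.1. TNFAIP2, the most abundant by the mean of the libraries, had 96.5 and 144 FPKM. All of these genes answer to other regulators as well. CCL2 is a target as well but was picked for its fall, so its direction is not set against this list. With reference gene scaling SDC4 was no longer called, and with a pseudocount of 0.1 or none VCAM1, at 1.98 and 0.801 FPKM, was called lower. A further 17 genes of the list, IL6, CXCL8 and ICAM1 among them, were not analysed here. A kB consensus match was present in 8 of 14 targets with a promoter window (57.1%), beside 17.4% of tested genes with a window. Other lists had a match in 3 of 5 further IkB genes, 4 of 11 negative regulators and 4 of 18 adaptors and ubiquitin ligases. It was in 1 of 9 genes of the IkB kinase list, 1 of 16 around MAP3K8 and none of 8 receptors. These shares were not tested.

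Below and around MAP3K8, 4 of 22 genes were called higher and 3 lower (median 0.39), beside 4.59% and 3.82% of all tested genes. None of the 9 kinases of the list was called: MAP2K2, the most abundant of the list, had 56.2 and 78.1 FPKM, and MAP2K1 and MAPK3, named after their values were seen, had 11.5 and 12.5 and 22.2 and 22.5. Among the transcripts that ERK signalling is known to induce, the called ones went both ways. FOSL1, an AP-1 subunit, had 1.98 FPKM in parental cells and 12.5 in the clone, and DUSP5, a nuclear ERK phosphatase, 3.92 and 15.8. FOS had 4.23 and 0.336 FPKM, and SPRY2, a feedback inhibitor, 15.2 and 3.14. The remaining calls, named after their values were seen, were EGR1, lower at 8.85 and 2.31, and DUSP1 and SPRED1, higher at 11.9 and 38.9 and at 4.13 and 9.27. SPRED1 was no longer called with either scaling. The uncalled ERK-induced transcripts of the list, also named after their values were seen, all had log2 folds above 0. These were DUSP4 at 0.57, ETV4 at 0.47, SPRY4 at 0.45, DUSP6 at 0.40 and ETV5 at 0.21. Only FOS, SPRY2 and EGR1 were lower among the ERK-induced transcripts.

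Of 23 other CC chemokines and receptors, 20 were not analysed here and CCL26 was under the filter, at 0.185 and 0.687 FPKM. ACKR3, a scavenging receptor for CXCL12, was called lower, at 2.86 and 0.725 FPKM, and CCR10 had 1.07 and 1.36. No value for CCR2, the main receptor of CCL2, was analysed here.

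**Figure D5:**
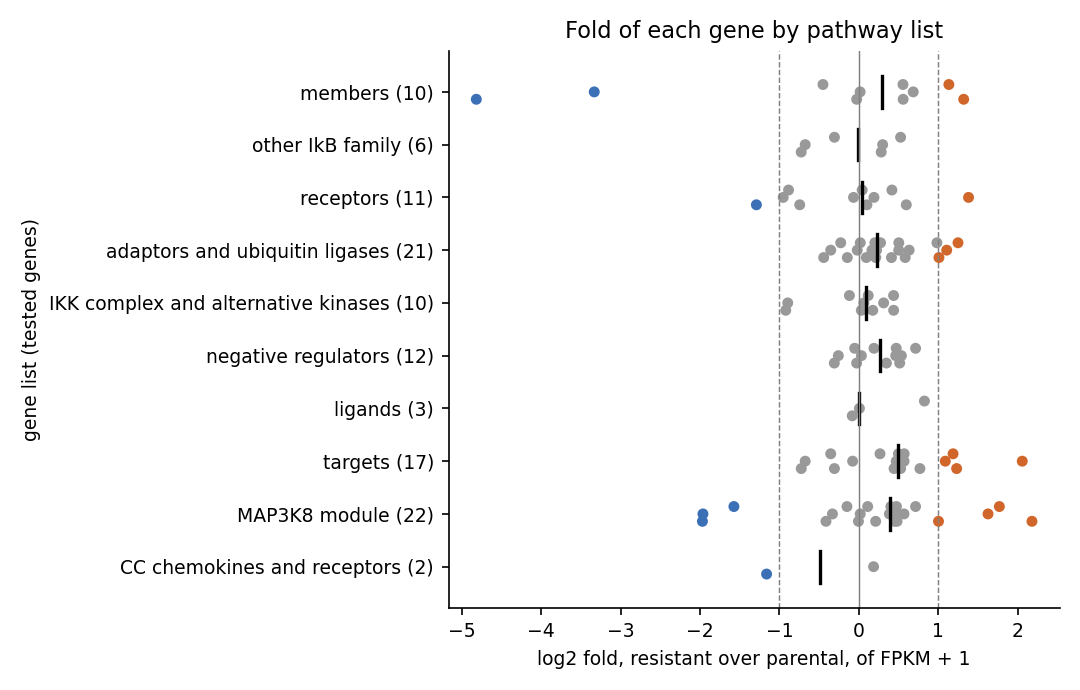
Log2 fold (resistant over parental, of FPKM + 1) of every tested gene in the member set and 9 pathway lists, with the number of tested genes in brackets. Orange points are at least 2-fold higher, blue points at least 2-fold lower and grey points neither; black bars are list medians and dashed lines mark 2-fold. The 4 called targets are all higher, while the list around MAP3K8 has calls on both sides.

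Markers of cells other than glioma cells, some of which make CCL2 in tumours, were read beside these values. Of 12 myeloid markers 2 had values, summing to 2.52 FPKM in parental cells and 0.919 in the clone, with PTPRC at 1.83 and 0.485 the more abundant. PTPRC was called lower with a pseudocount of 0.5, 0.1 or none. No value was analysed for any of 8 lymphoid markers. Of 8 endothelial markers 3 had values, summing to 11.0 and 1.73 FPKM, mostly from TEK at 9.53 and 1.56. All 8 fibroblast and mural markers had values, summing to 137 and 106 FPKM, with PDGFRB the most abundant by the mean of the libraries, at 53.5 and 31.6. Members of that list went both ways, with a median log2 fold of -0.08: of the genes named after their values were seen, ACTA2 was called higher at 0.945 and 5.30 FPKM, LUM had 16.4 and 33.0, DCN 6.03 and 5.96, and the pericyte gene RGS5 was called lower at 22.8 and 1.55. The myeloid, endothelial and fibroblast sums were lower in the resistant library, as CCL2 and MAP3K8 were, and their part in the result was not tested. Both libraries are of A172 cultures, and whether these marker transcripts come from the line itself was not tested. Of 10 genes known from glioblastoma lines 7 had values, among them SPARC, the most abundant at 2854 and 3856 FPKM. None was called higher and 2 were called lower. These 2, named after their values were seen, were the neural stem cell gene NES, at 33.7 and 5.08, and SOX2, at 2.23 and 0.253. NES and SOX2 were lower together with CCL2 and MAP3K8, and their part was not tested. The other 5 had a log2 fold above 0, and the list median was 0.43. Among those 5, also named after their values were seen, CD44 had 83.1 and 161 FPKM, EGFR 36.8 and 63.2, and OLIG2 1.43 and 3.42. OLIG2 was called higher with a pseudocount of 0.5, 0.1 or none. GFAP, S100B and FABP7 were not analysed here.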

How the data were processed

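Total RNA of 1 parental and 1 resistant A172 culture was made into stranded mRNA libraries, per the labels. The authors deposited FPKM for each library, together with the p-value and q-value of a comparison between them, per the file headers. Which aligner, quantification, build, scaling and test were used is not given in the sources used here. Every listed gene had at least 0.544 FPKM in one library. The members' loci were compared with GENCODE release 29 (GRCh38): after adding 1 to the listed start, 8 of 10 starts were equal, and all 10 loci contained the gene.

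The log2 fold used a pseudocount of 1, which understates changes of low genes. Genes reaching 1 FPKM in either library were tested and called at 2-fold. With 1 library a group no p-value was computed. The members and lists were chosen with earlier results of these data known. Named from each list were the most abundant tested gene and up to 4 with the largest log2 folds in size, plus the 3 listed genes on each side of a called member and its 3 nearest in level; others are said to be named after their values were seen. Promoter windows came from RefSeq. The calling rule was checked on simulated data of genes at 5 FPKM or more, with planted folds clear of the threshold. That check does not cover folds near the threshold or lower genes. Python 3.11.15, pandas 2.3.3 and matplotlib 3.10.9 were used.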

Additional observations from a re-analysis of the deposited data

How the results depend on the processing

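NFKB2 and RELB were called higher, and MAP3K8 and CCL2 lower, with a pseudocount of 0.1, 0.5 or none, with no filter or one of 5 FPKM (which left 8 members), with either scaling, and without genes listed at 0 in one library, a setting added after seeing the data. Of these settings, only the scalings could have removed a call. A smaller pseudocount can only enlarge a fold, and each called member passes 5 FPKM in a library and is above 0 in both. At 1.5-fold RELA joined the higher members, making 3. At 4-fold, 0 members were higher, and MAP3K8 and CCL2 were still lower. Scaling to the upper quartile shifted log2 folds by -0.08 and scaling to reference genes by -0.09. Counts over all tested genes moved more: 1076 were higher and 1029 lower with a pseudocount of 0.1, 1118 and 1025 with none, 763 lower with 0.5 against 532, 282 lower with the 5 FPKM filter, 2020 and 1674 at 1.5-fold, and 61 and 59 at 4-fold. Of list counts under the alternatives, 250 stayed within 1.5 times and 50 did not. With a pseudocount of 0.1, 4 receptors, NFKBID, IKBKE and VCAM1 were lower, and IL1A, IL1R1 and RIPK2 were higher. Of the markers, PTPRC gained a lower call at that pseudocount, and LUM and OLIG2 gained higher ones. With either scaling BCL10 and SPRED1 lost their calls, as SDC4 did with reference gene scaling. No paired analysis was possible because each group has 1 library. Depth is unknown, so the precision of low values such as CCL2 in the resistant clone cannot be given.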

Other observations

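The kB consensus was read against the folds of all tested genes with a promoter window, a comparison added after seeing the data and given as a description. Of 1660 tested genes with a match in a window, 4.34% were called higher and 3.31% lower in the resistant clone, with a median log2 fold of 0.07. Of 7896 without a match, 4.58% were higher and 2.72% lower, with a median of 0.06. Genes that hold the letters of the site thus had nearly the same folds as the rest. The list of known targets had a median of 0.50, but it was chosen with earlier results known and was not tested. Medians of other lists ran from -0.01 for the further IkB genes and 0.04 for receptors to 0.27 for negative regulators and 0.39 around MAP3K8.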
